A study of Mus musculus with 12 samples.

Results

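Of the 12 RNA libraries of the study, 6 are compared here: 3 labelled DKO, for double knockout, and 3 labelled WT, for wild type. They were chosen by their titles alone. All 6 were made from fibroblast cultures grown out of mouse embryo tissue, taken from male C57BL/6N embryos at E15.5 and harvested at passage 4 and 80% confluency. The DKO cells are labelled Gadd45a-/-;Ing1-/- and came, like the WT cells, from crosses between Gadd45a-deficient and Ing1-deficient mice. Both deletions are present from the germline on, so they affect every cell of the embryo. No label tells separate embryos from repeat cultures of 1 embryo, so p-values measure the spread between libraries of a group, which may be technical. That spread was estimated over all 12 libraries of the study, those not compared here included. Gene counts per library ran from 33098932 to 37011208 in WT and from 31493168 to 38070996 in DKO, and 15098 genes passed the filter on low counts. Levels are given as CPM, which scales counts to library size but not to gene length, and are compared between libraries, not between genes.

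Ing1 encodes a protein that reads a methyl mark of active promoters and brings the Sin3 histone deacetylase complex to them. Gadd45a encodes a small stress-induced protein with roles in cell cycle arrest, DNA repair and DNA demethylation. A primary culture of embryo tissue also holds cells other than fibroblasts. Macrophages, the resident phagocytes of embryonic tissue, descend from blood cell progenitors of the yolk sac and fetal liver, are set up by the transcription factor PU.1 and survive on signals through the receptor Csf1r, whose ligands stromal cells secrete. Fibroblasts make and remodel the collagen-rich matrix. Genes known from macrophages are therefore described apart from genes known from fibroblasts. In a bulk library, fewer cells of a type and less RNA per cell cannot be told apart.

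The targeted genes were measured first. Ing1 (ENSMUSG00000045969, chromosome 8) stood at 52.1, 50.4 and 54.4 CPM in the WT libraries and at 1.29, 0.916 and 1.14 CPM in the DKO libraries. This is a log2 fold change of -5.54 ± 0.10 (SE, n = 3 each, edgeR adjusted p = 1.02e-12). The SE, here and for other log2 fold changes below, comes from the fit of all 12 libraries and not from these 6 alone. Gadd45a (ENSMUSG00000036390, chromosome 6) went the other way, from 20.9, 21.1 and 21.3 CPM to 132, 120 and 127 CPM (log2 fold change 2.58 ± 0.15, edgeR adjusted p = 1.88e-05). The groups did not overlap for either gene. Ing1 matches the labels, and the Gadd45a count goes against them. The same holds in the single knockouts of the study: Gadd45a stood at 99.9 ± 21.7 CPM (SD, n = 3) in the libraries labelled as lacking Gadd45a alone and at 18.4 ± 1.91 CPM (SD, n = 3) in those labelled as lacking Ing1 alone. Which part of Gadd45a the knockout removes is not stated by the labels, and a count over the whole gene checks nothing where transcript outside the deletion remains. The gene also overlaps an exon of E230016M11Rik. Every direction below therefore rests on the labels, and DKO stands for the libraries labelled DKO throughout.

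Of the 15098 genes tested, 3909 were called (25.9%, Benjamini-Hochberg adjusted p under 0.05 in edgeR), 2348 higher in DKO (15.6%) and 1561 lower (10.3%). Most changes were small: the median log2 fold change was 0.41 among the genes called higher and -0.43 among those called lower. A change of 2-fold or more was seen in 557 of the genes called higher (3.69% of all tested) and 310 of those called lower (2.05%). Among the 7290 genes with a WT mean of 20 CPM or more, only 34 were called at 2-fold or more higher and 36 lower. The macrophage lists held 156 of the 557 genes called at 2-fold or more higher. The plot of WT level against change shows where these genes lie.

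**Figure D1:**
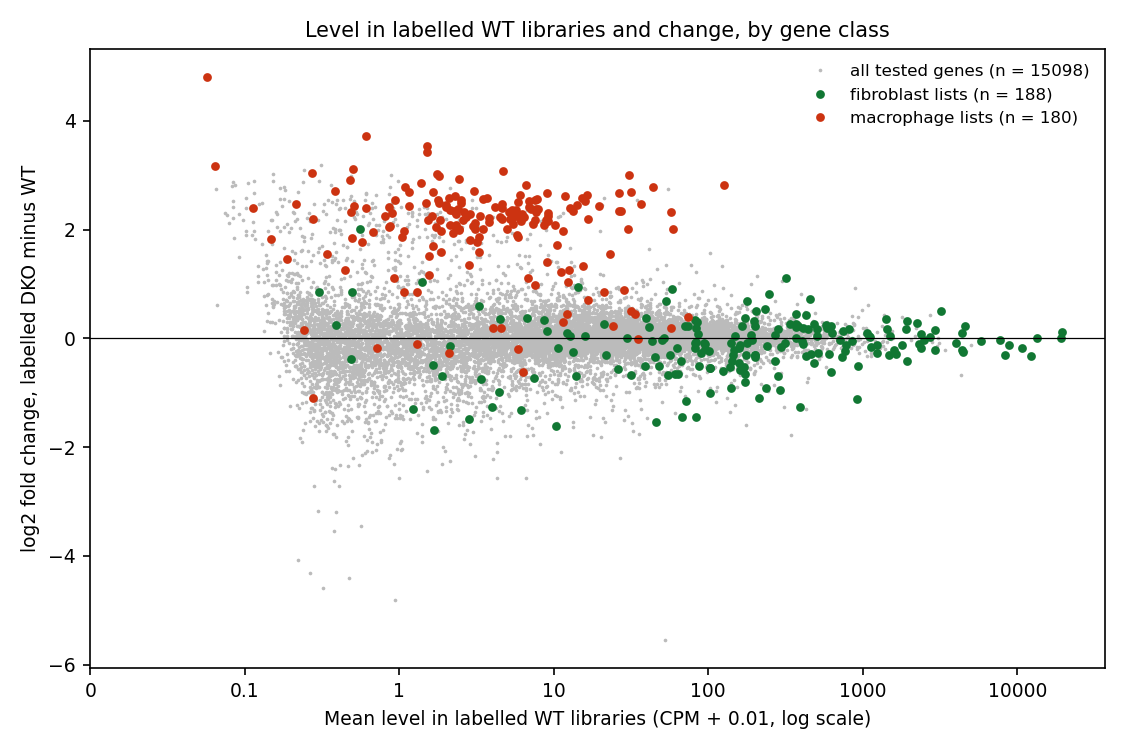
Mean level in the 3 WT libraries (horizontal axis, CPM + 0.01, log scale) against the log2 fold change of DKO over WT (vertical axis) for 15098 tested genes (grey points), with members of the macrophage lists in red and of the fibroblast lists in green. Most red points form a band near a log2 fold change of 2.23, their median, while most green points lie near 0.

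Macrophage genes rose as a block in DKO. Of 202 listed macrophage genes, 196 had an identifier, 180 passed the filter, and 167 of these were called higher (92.8%, against 15.6% of all genes tested) and 0 lower. All 3 DKO libraries lay above all 3 WT libraries for 169 of the 180, against 22.8% of all genes. The median log2 fold change of the 180 was 2.23, with a quartile range of 1.84 to 2.48, against a median of 0.01 over all genes. Of the 180, 124 were called at 4-fold or more. A member that passed the filter only through DKO had to differ, so these counts describe the list and do not stand as its test. All 40 lists were also chosen with earlier results of these data known. The shares of every list, here and below, are therefore descriptions and not tests. Of the 167 calls, 150 were made in each of 12 other fits (other size factors, another tool, no filter, fewer libraries, a replicate block and each WT or DKO library left out). The fit with the macrophage level as a covariate, described below, is not among the 12. The summed level of the list was 1199, 1757 and 1686 CPM in WT and 7374, 6364 and 6125 CPM in DKO. These genes drew 0.12% to 0.178% of the gene counts of a WT library and 0.607% to 0.722% of those of a DKO library.

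**Figure D2:**
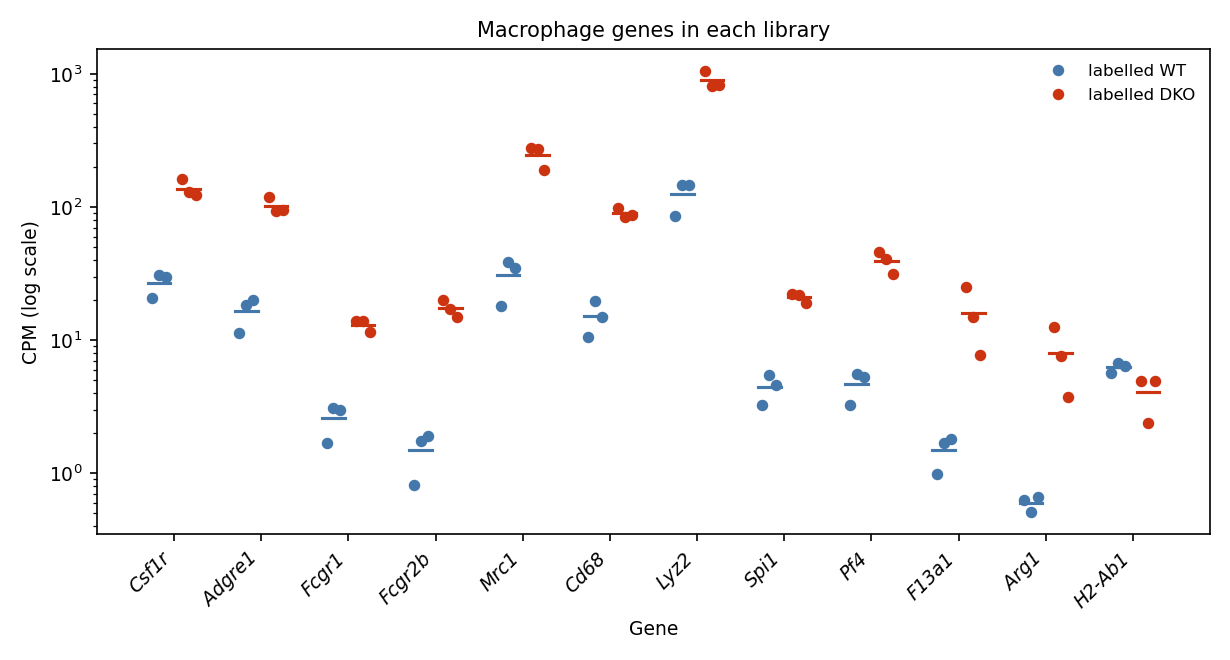
Level of 12 macrophage genes (CPM, log scale) in the 3 WT libraries (blue) and the 3 DKO libraries (red), 1 point per library, with the group mean as a bar. For 11 of the genes all DKO points lie above all WT points, and for H2-Ab1 they lie below.

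The genes that define the cell type were present in WT and higher in DKO. Csf1r, the receptor for the macrophage growth factors Csf1 and Il34, stood at 20.8, 30.7 and 29.7 CPM in WT and 161, 130 and 122 CPM in DKO (log2 fold change 2.35 ± 0.44, edgeR adjusted p = 0.00477). Adgre1, which encodes the F4/80 antigen, stood at 11.3, 18.4 and 19.9 CPM and then 118, 93.6 and 94.5 CPM (2.63 ± 0.46, edgeR adjusted p = 0.00365). WT library 1 was the lowest of the WT libraries for both genes, and DKO library 1 the highest of all 6. Spi1, which encodes PU.1, rose too, from 3.24, 5.45 and 4.63 CPM to 22.3, 21.7 and 18.9 CPM (2.24 ± 0.41, edgeR adjusted p = 0.0038). Ptprc, the CD45 antigen of blood cells, rose from 6.59, 11.8 and 12.2 CPM to 47.7, 41.9 and 39.9 CPM. Both genes kept the groups apart by more than the spread within either.

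Surface receptors were the most uniform of the 3 macrophage lists, with 64 of 68 tested members called higher, a median log2 fold change of 2.33 and a quartile range of 2.04 to 2.53. The Fc receptors, which bind antibody-coated particles, rose together: Fcgr1 went from 1.69, 3.1 and 3.01 CPM to 13.9, 13.9 and 11.5 CPM. Fcgr2b, the inhibitory Fc receptor, rose more, from 0.816, 1.76 and 1.89 CPM to 20, 17 and 15 CPM (log2 fold change 3.54 ± 0.50, edgeR adjusted p = 0.00111). The adaptor genes through which such receptors signal, Tyrobp and Fcer1g, had log2 fold changes of 2.38 ± 0.43 and 2.39 ± 0.43. The integrin gene Itgam and the fractalkine receptor gene Cx3cr1 lay close by, at 2.61 ± 0.47 and 2.53 ± 0.49. Among the lectin receptors, Clec4d rose from 1.2, 2.03 and 2.01 CPM to 16.0, 14.3 and 12.4 CPM (3.02 ± 0.43, edgeR adjusted p = 0.00104). Trem2, a lipid-sensing receptor of macrophages and microglia, had a log2 fold change of 2.48 ± 0.44. The 6 receptor genes with the smallest adjusted p were Mertk, Csf2rb2, Gpr34, Siglec1, Cd33 and Tlr1, with log2 fold changes of 1.23, 2.79, 2.41, 2.94, 2.49 and 2.31. Mertk, which takes up dying cells, thus rose less than the list's median.

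Genes of macrophage signalling, killing and secretion followed, with 77 of 82 tested members called higher and a median of 2.18. Lyz2, which encodes the lysozyme of macrophages, went from 85.8, 146 and 147 CPM to 1045, 816 and 831 CPM (log2 fold change 2.83 ± 0.50, edgeR adjusted p = 0.00379). The 3 chains of complement C1q, which macrophages secrete, moved alike: C1qa changed by 2.70 ± 0.50, C1qb by 2.48 ± 0.47 and C1qc by 2.68 ± 0.47. Cybb, the catalytic subunit of the phagocyte oxidase, and Laptm5, a lysosomal membrane protein of blood cells, changed by 2.18 ± 0.48 and 2.34 ± 0.47. Cd68, a lysosomal glycoprotein used as a macrophage stain, went from 10.6, 19.7 and 15.0 CPM to 98.3, 84.6 and 87.6 CPM. The smallest adjusted p belonged to Unc93b1, which carries Toll-like receptors, the kinase gene Syk, Pik3cd, Dok3, Bcl2a1b and Pik3r5, with log2 fold changes of 0.89, 1.71, 1.41, 1.70, 3.04 and 2.18. The counts of Lyz2 and Lyz1 are uncertain to the extent that their near-identical sequences share reads.

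Genes of tissue-resident and alternatively activated macrophages varied most among themselves, with 26 of 30 tested members called higher, a median of 2.28 and log2 fold changes up to 4.80. Mrc1, the mannose receptor, went from 17.9, 38.8 and 35.1 CPM to 277, 272 and 189 CPM. Arg1, the arginase of alternatively activated macrophages, went from 0.626, 0.508 and 0.661 CPM to 12.5, 7.55 and 3.76 CPM (3.73 ± 0.45, edgeR adjusted p = 0.000274). F13a1, a transglutaminase of this state, went from 0.98, 1.68 and 1.8 CPM to 25.2, 14.8 and 7.77 CPM (3.42 ± 0.62, edgeR adjusted p = 0.00376). The DKO libraries differed among themselves for Arg1 and F13a1, with DKO library 3 lowest, and still none overlapped WT. Pf4, a chemokine of macrophages and platelets, went from 3.24, 5.56 and 5.26 CPM to 46.3, 40.8 and 31.3 CPM (3.07 ± 0.43, edgeR adjusted p = 0.00116). Wfdc17, of a family of secreted protease inhibitors, and Ccl6, a chemokine, rose by 3.12 ± 0.37 and 2.99 ± 0.49. Outside the lists, the signalling adaptor gene Samsn1 and the transporter gene Slco2b1 rose by 3.01 ± 0.36 and 2.98 ± 0.40. Il1b, the inflammatory cytokine, was near 0 in WT, with 0.0, 0.0802 and 0.0601 CPM, and stood at 1.78, 1.42 and 0.954 CPM in DKO, and its exons overlap Il1bos.

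Not every macrophage gene rose. Of the tested members, 13 were not called, among them Cmklr1, Cd40, Itgax, Adgrg5, H2-Ab1, H2-Eb1, Tbc1d10c, Gngt2, Il1rn, Il18, Ccl8 and Egr2. H2-Ab1, which encodes a chain of the MHC class II molecule of antigen-presenting cells, stood at 5.69, 6.71 and 6.37 CPM in WT and at 4.95, 2.37 and 4.9 CPM in DKO (log2 fold change -0.61 ± 0.37, edgeR adjusted p = 0.269). H2-Eb1, another such chain, was under 0.4 CPM in every library and lower in DKO, and H2-Aa had a count of 0 in all 6. Neither tested class II chain gene was thus called higher. Slc40a1, the iron exporter, rose by only 0.50 ± 0.10 and Csf2ra, a receptor chain for the growth factor GM-CSF, by 0.31 ± 0.07. Chil3, Cd209f, Cd209g, Ear2 and Pdcd1lg2 had a count of 0 in all 6 libraries. Exons of 32 tested members overlap another annotated gene, Csf1r, Stab1 and Cd74 among them, and their counts may include or lack reads of that gene.

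Promoters of 3 macrophage genes are shown because the macrophage genes moved together, and those of 2 proteoglycan genes called lower stand beside them for comparison. Each stretch is the 250 bases before the RefSeq start of the gene (GRCm38.p6, a later build than the one the authors mapped to), written along the gene's strand. Capitals mark GAGGAA, the core bound by PU.1, or its reverse complement TTCCTC, and TTGCNNAA, a C/EBP site, on either strand. The windows are Mrc1 at chr2:14229164-14229413 (plus strand), Pf4 at chr5:90772185-90772434 (plus), Wfdc17 at chr11:83703806-83704055 (plus), and, of the fibroblast genes described below, Fmod at chr1:134037004-134037253 (plus) and Prelp at chr1:133921402-133921651 (minus).
Mrc1: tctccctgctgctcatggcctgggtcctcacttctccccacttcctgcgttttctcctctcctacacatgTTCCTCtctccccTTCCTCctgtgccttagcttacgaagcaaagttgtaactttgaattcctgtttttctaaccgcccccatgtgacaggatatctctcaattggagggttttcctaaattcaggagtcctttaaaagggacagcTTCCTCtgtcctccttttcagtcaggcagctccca
Pf4: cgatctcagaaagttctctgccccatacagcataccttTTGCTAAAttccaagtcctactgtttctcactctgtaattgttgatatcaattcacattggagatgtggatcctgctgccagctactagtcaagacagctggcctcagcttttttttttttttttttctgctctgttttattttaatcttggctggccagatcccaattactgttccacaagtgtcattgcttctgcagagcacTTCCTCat
Wfdc17: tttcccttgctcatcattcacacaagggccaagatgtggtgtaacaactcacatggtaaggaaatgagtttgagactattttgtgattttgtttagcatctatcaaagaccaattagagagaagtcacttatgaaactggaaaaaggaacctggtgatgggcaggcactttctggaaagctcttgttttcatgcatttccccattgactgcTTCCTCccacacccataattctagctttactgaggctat
Fmod: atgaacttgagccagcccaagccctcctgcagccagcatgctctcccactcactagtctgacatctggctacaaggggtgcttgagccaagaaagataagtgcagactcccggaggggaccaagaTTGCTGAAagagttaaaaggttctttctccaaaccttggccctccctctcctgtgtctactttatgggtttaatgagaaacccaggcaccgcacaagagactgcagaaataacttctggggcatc
Prelp: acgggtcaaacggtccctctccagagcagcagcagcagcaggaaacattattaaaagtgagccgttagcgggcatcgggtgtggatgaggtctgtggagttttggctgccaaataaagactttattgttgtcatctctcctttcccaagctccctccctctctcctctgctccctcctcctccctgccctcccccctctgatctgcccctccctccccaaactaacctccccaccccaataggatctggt

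The Mrc1 stretch held the PU.1 core at 3 places, all as TTCCTC, the nearest of them ending 30 bases before the start. The Pf4 stretch held it once, ending 3 bases before the start, with a C/EBP match ending 205 bases before it, and the Wfdc17 stretch held it once, ending 34 bases before the start. The Fmod stretch held 1 C/EBP match, ending 118 bases before the start, and the Prelp stretch held neither motif. The interferon response element and the E2F motif TTTNGCGC were searched for as well and were in none of the 5 stretches. In windows of 300 bases (250 before and 50 after each start), GAGGAA was found in 28.3% of all 32851 RefSeq windows. For the macrophage lists, 148 of 202 members had a window, and 54.8% of their 177 windows held it, with 63.8% among the surface receptors. The share was 52.2% of the 23 windows of the fibroblast identity list and 25.2% of the 151 windows of all fibroblast lists. A high share was thus not limited to macrophage genes. A match is letters in a window, not a bound site.

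Genes that macrophages and fibroblasts share changed less. Of the 31 lysosome and lipid handling genes, 16 were called higher and 2 lower (51.6% and 6.45%, against 15.6% and 10.3% of all genes). Their median log2 fold change was 0.24. Apoe, a lipid carrier that macrophages secrete, changed most, from 44.5, 61.1 and 58.1 CPM to 413, 330 and 360 CPM (2.75 ± 0.42, edgeR adjusted p = 0.00181). Of the cathepsin genes in this list, which encode lysosomal proteases, Ctsc rose by 1.57 ± 0.26, Ctsb by 0.92 ± 0.08, Ctsd by 0.53 ± 0.05, Ctsz by 0.34 ± 0.06 and Ctsa by 0.21 ± 0.05 on the log2 scale. Ctsl was not called (0.02 ± 0.05, edgeR adjusted p = 0.814), and its groups overlapped. Ctsb, an exon of which overlaps Fdft1, went from 845, 945 and 888 CPM to 1752, 1647 and 1676 CPM. Fth1 and Ftl1, the chains of the iron store ferritin, rose by 0.81 ± 0.06 and 0.54 ± 0.06 and have many pseudogene copies, so their counts are uncertain.

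Interferon response genes did not move as a group. Of 40 tested, 7 were called higher and 4 lower (17.5% and 10%, against 15.6% and 10.3% of all genes), with a median of 0.09, and without DKO library 3, WT library 1 or WT library 3 the number higher was 3, 4 and 3. Slfn5 went from 15.0, 19.4 and 16.9 CPM to 6.24, 5.15 and 7.5 CPM (log2 fold change -1.44 ± 0.17, edgeR adjusted p = 0.000157), although an exon overlaps Slfn5os. Of the genes called higher, the antiviral genes Rsad2 and Oas1a had the largest log2 fold changes, 1.37 ± 0.41 and 1.26 ± 0.25 (edgeR adjusted p = 0.0269 and 0.00269), at levels of at most 2.57 CPM. The ubiquitin-like gene Isg15 had a log2 fold change of 0.14 ± 0.25 and its groups overlapped. The interferon response element was found in 58.3% of the 36 promoter windows of this list, against 3.44% of all windows.

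Signals known to sustain or attract macrophages were called in both directions. Of 22 tested macrophage growth factors and chemokines, 3 were called higher and 4 lower (13.6% and 18.2%, near the 15.6% and 10.3% of all genes), and the number lower was 2 without WT library 1. Il34, a ligand of Csf1r, went from 4.74, 3.48 and 3.61 CPM to 1.93, 1.36 and 1.64 CPM (log2 fold change -1.26 ± 0.22, edgeR adjusted p = 0.00134). Csf1, its other ligand, stood at 243, 236 and 242 CPM and then 220, 211 and 225 CPM (-0.14 ± 0.04, edgeR adjusted p = 0.032), and lost this call when DKO library 1 or 2 or any WT library was left out. Kitl, the ligand of the receptor Kit on mast cells and blood progenitors, fell most, from 48.4, 44.2 and 45.2 CPM to 12.8, 14.3 and 20.1 CPM (-1.54 ± 0.15, edgeR adjusted p = 0.00013). No DKO library reached the WT range for any of these genes. Gas6, a bridging ligand in the uptake of dying cells, fell by 0.45 on the log2 scale. The chemokine genes Ccl2, Ccl7 and Cxcl12 were not called, with log2 fold changes of -0.09 ± 0.12, -0.24 ± 0.09 and -0.09 ± 0.22. The genes called higher were Mif, a cytokine gene, by 0.33 ± 0.06, and the chemokine genes Cxcl10 and Ccl20 by 1.03 ± 0.31 and 0.86 ± 0.27 (edgeR adjusted p = 0.0253 and 0.0328). Cxcl10 and Ccl20 stayed under 4 CPM in every library, and an exon of Cxcl10 overlaps Art3.

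Fibroblast genes changed far less than macrophage genes and in both directions. In 6 lists of identity, matrix and cytoskeleton genes, 166 of 169 members were tested, 31 were called higher and 44 lower (18.7% and 26.5%), with a median log2 fold change of -0.11. Without the contractile list, 14 of 144 were higher and 44 lower (30.6%, against 10.3% of all genes). Of the widely used fibroblast markers, Vim, Pdgfra, Thy1 and S100a4 were not called, while Pdgfrb and Ddr2 were called lower. Vim stood at 2653, 2375 and 2411 CPM in WT and 2406, 2326 and 2537 CPM in DKO (-0.03 ± 0.06). Pdgfra, a growth factor receptor, and Thy1, a surface glycoprotein, had log2 fold changes of -0.02 ± 0.14 and 0.10 ± 0.07. The 2 main collagen chains, Col1a1 and Col1a2, differed by 0.12 ± 0.08 and -0.00 ± 0.07 and were not called.

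Of the 37 tested fibroblast identity genes, 14 were called lower (37.8%, against 10.3% of all genes) and 0 higher, with a median of -0.28. Of the 14 calls, 11 were made in each of the 12 other fits and 0 with the macrophage level as a covariate. Twist1, a transcription factor of mesenchyme, went from 67.7, 64.8 and 58.1 CPM to 37.4, 43.8 and 39.1 CPM (-0.66 ± 0.08, edgeR adjusted p = 0.000104). Ly6a, the Sca-1 antigen of progenitor-like fibroblasts, went from 276, 278 and 289 CPM to 155, 158 and 206 CPM (-0.70 ± 0.12, edgeR adjusted p = 0.00179). Pi16, a marker of adventitial fibroblasts, was low throughout, at 1.44, 1.39 and 0.842 CPM and then 0.546, 0.537 and 0.424 CPM (-1.29 ± 0.29, edgeR adjusted p = 0.00538). The 3 genes had no overlap between groups. The transcription factor genes Ebf1, Nfib, Prrx2, Tbx15 and Tcf4 fell by 0.50, 0.54, 0.51, 0.35 and 0.31 on the log2 scale, and Pdgfrb and the collagen receptor gene Ddr2 both fell by 0.28.

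**Figure D3:**
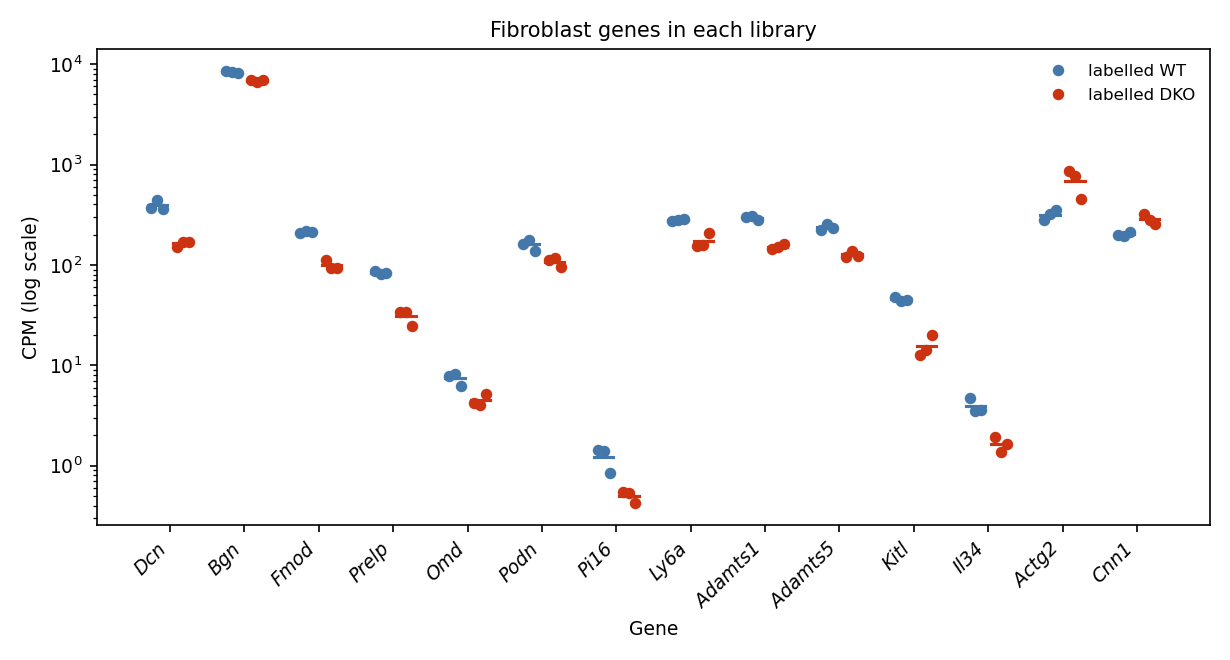
Level of 14 fibroblast genes (CPM, log scale) in the 3 WT libraries (blue) and the 3 DKO libraries (red), 1 point per library, with the group mean as a bar. The DKO points lie below the WT points for 12 genes and above them for the contractile genes Actg2 and Cnn1. All 14 were picked from genes called, while 91 of 166 tested fibroblast identity, matrix and cytoskeleton genes were not called.

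Small leucine-rich proteoglycans, which coat collagen fibrils and bind growth factors in the matrix, were the fibroblast list with the largest share of lower genes. All 12 members of the list, which also holds the large proteoglycan gene Vcan, were tested. Of these, 7 were called lower (58.3%, against 10.3% of all genes) and 0 higher. The median was -0.72, and all 12 log2 fold changes were negative. Decorin (Dcn), which coats collagen fibrils and binds TGF-beta, went from 373, 442 and 363 CPM to 151, 171 and 170 CPM (-1.26 ± 0.15, edgeR adjusted p = 0.000438). Prelp went from 86.7, 81.4 and 83.0 CPM to 33.7, 34.1 and 24.9 CPM (-1.44 ± 0.21, edgeR adjusted p = 0.00121), with an exon overlap with Gm15851. Fibromodulin (Fmod) went from 210, 216 and 215 CPM to 113, 93.9 and 94.2 CPM (-1.09 ± 0.24, edgeR adjusted p = 0.00999). Each of these genes was lower in every DKO library than in any WT library. Biglycan (Bgn), with 8135 to 8574 CPM in WT and 6571 to 6959 CPM in DKO, fell by 0.30 on the log2 scale. Omd, Podn and Ecm2 fell by 0.73, 0.58 and 0.99. Lumican (Lum), at 121, 161 and 138 CPM and then 79.6, 86.6 and 55.5 CPM, missed the threshold (-0.92 ± 0.32, edgeR adjusted p = 0.0688), as did Ogn, Aspn, Kera and Vcan. The 7 calls were made in each of the 12 other fits. With the macrophage level as a covariate, 0 members were called.

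Collagens and their assembly enzymes showed no direction, with 6 of 36 called higher and 4 lower (16.7% and 11.1%, close to the shares over all genes) and a median of -0.01. The number higher was 3 without DKO library 1. Of the lysyl oxidase genes, which cross-link collagen, Loxl3, Loxl2 and Loxl1 rose by 0.81 ± 0.09, 0.28 ± 0.06 and 0.20 ± 0.06, and Lox and Loxl4 were not called, while Col5a2 fell by 0.25 on the log2 scale. Among 36 elastic fibre and glycoprotein genes 5 were higher and 9 lower (13.9% and 25%, against 15.6% and 10.3% of all genes). The number lower was 5 without DKO library 1 and 14 in DESeq2 or with only the 6 libraries. Ltbp1, which holds latent TGF-beta in the matrix, went from 165, 182 and 184 CPM to 287, 285 and 287 CPM (0.69 ± 0.06, edgeR adjusted p = 2.62e-05), and Ltbp4, a relative, fell by 0.55. Ccn3, a matricellular growth regulator, fell from 894, 981 and 887 CPM to 483, 478 and 316 CPM (-1.11 ± 0.15, edgeR adjusted p = 0.000666), and Smoc2, a calcium-binding matrix protein, fell by 1.15. Tnc, the tenascin of wounds and growing tissue, rose by 0.50 ± 0.09. Eln, the elastin gene, was not called and was uneven within DKO, at 269, 256 and 45.7 CPM.

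Among 23 tested matrix proteases and inhibitors, 10 were called lower and 3 higher (43.5% and 13%, against 10.3% and 15.6% of all genes). Adamts1 and Adamts5, which cut proteoglycans, went down in all 3 DKO libraries: Adamts1 from 298, 305 and 278 CPM to 144, 152 and 160 CPM (-0.95 ± 0.06, edgeR adjusted p = 7.54e-06), and Adamts5 from 223, 258 and 234 CPM to 121, 137 and 124 CPM (-0.91 ± 0.13, edgeR adjusted p = 0.000826). Adamts15 fell by 0.67 on the log2 scale, and Adamts4, Adamts9 and Adamts12 were not called. The gelatinase gene Mmp2 fell by 0.62 on the log2 scale and Mmp11 by 0.80, and the inhibitor gene Timp3 fell by 0.50. The 3 genes called higher were Mmp10, a stromelysin, from 0.68, 0.294 and 0.661 CPM to 1.18, 1.58 and 3.82 CPM (2.02 ± 0.47, edgeR adjusted p = 0.00825), and the plasminogen activator genes Plau by 0.90 ± 0.17 and Plat by 0.54 ± 0.10.

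Contractile and actin cytoskeleton genes were slightly higher, with 17 of 22 called higher (77.3%, against 15.6% of all genes) and 0 lower, and a median of only 0.20. The count depends on single libraries: it was 6 without DKO library 1, 11 without DKO library 2, 11 without WT library 1, 8 without WT library 2 and 10 without WT library 3. The calls made in each of the 12 other fits were Tagln, Cnn1, Tpm1, Tpm2, Actg2 and Lmod1. Actg2, the smooth muscle gamma actin, went from 278, 318 and 355 CPM to 853, 760 and 458 CPM (1.12 ± 0.21, edgeR adjusted p = 0.00395). Cnn1, which encodes calponin, went from 200, 195 and 214 CPM to 321, 281 and 258 CPM (0.50 ± 0.08, edgeR adjusted p = 0.00104). DKO library 3 was the lowest DKO library for both genes.

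**Figure D4:**
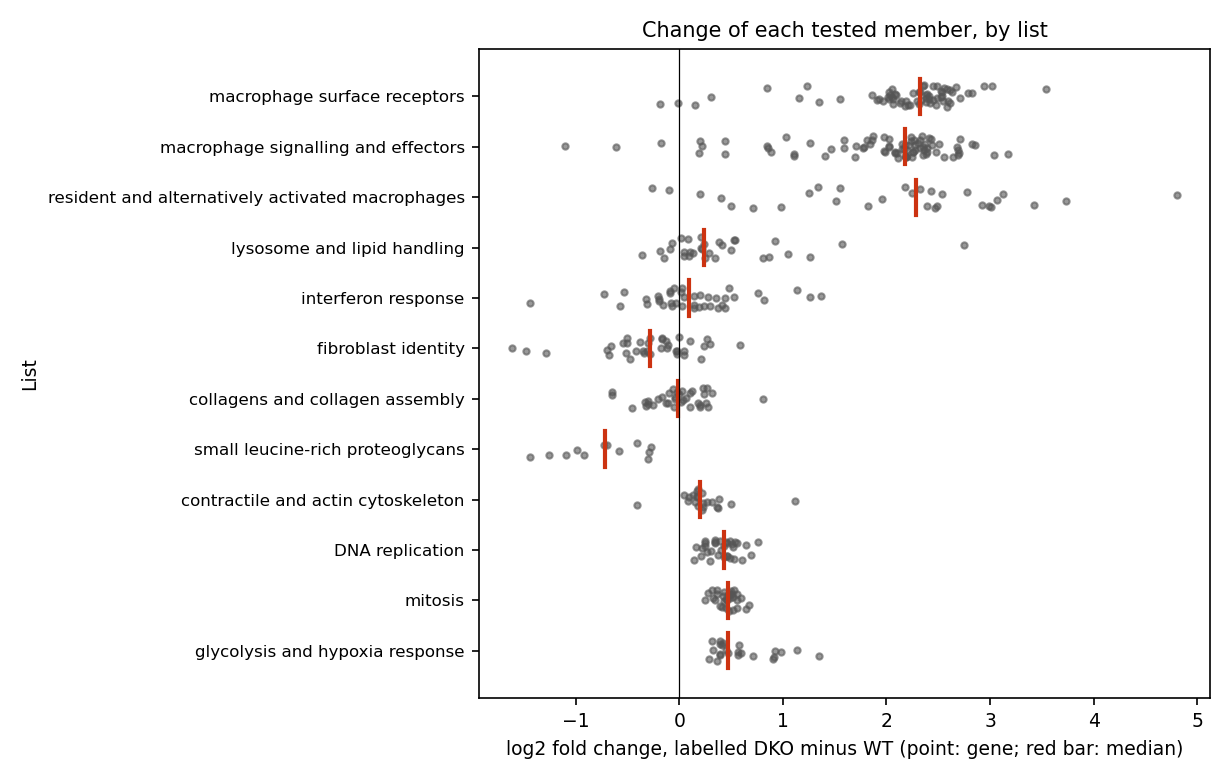
Log2 fold change of DKO over WT (horizontal axis) for each tested member (grey points) of 12 gene lists, with the list's median as a red bar. The 3 macrophage lists have medians of 2.18 to 2.33, and the others between -0.72 and 0.47.

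Outside the macrophage and shared lists, the genes with a WT mean of 20 CPM or more that fell most after Ing1 were Aqp1, Ndnf, Lgr5, Apod, Susd2, Megf6, Chodl, Kitl, Xdh, Arhgap20 and Cyp4b1. Lgr5, a receptor for the Wnt-enhancing R-spondins, went from 366, 331 and 333 CPM to 91.2, 96.8 and 111 CPM (-1.78 ± 0.21, edgeR adjusted p = 0.000427). Aqp1, a water channel, went from 34.9, 21.9 and 24.3 CPM to 6.53, 4.9 and 6.12 CPM (-2.20 ± 0.42, edgeR adjusted p = 0.00526). Apod, a lipid-binding protein of quiescent fibroblasts, went from 40.9, 36.8 and 28.4 CPM to 7.82, 9.0 and 14.4 CPM (-1.76 ± 0.25, edgeR adjusted p = 0.000977). All DKO libraries lay below all WT libraries for these genes. The call of Xdh was lost without DKO library 1 or 2, without WT library 1 and with only the 6 libraries. At lower levels, the cartilage matrix genes Cilp and Matn4 and the calcium channel gene Ryr3 fell by 2.57, 2.21 and 2.56 on the log2 scale. Prrg3, Lonrf2, Naalad2 and Gm11816, named by the same rule, fell by 2.08, 2.08, 1.94 and 1.92.

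By the same rule the genes that rose most were Gadd45a, Fcrls, Adam8, Ucp2, Cotl1, Sirpa, Egln3, Lgmn, Ankrd1, Pla2g7, Dusp6 and Slc2a1. Fcrls, an Fc receptor-like gene of microglia and macrophages, went from 22.9, 40.5 and 39.7 CPM to 229, 189 and 182 CPM. Sirpa, a phagocyte receptor, and Lgmn, a lysosomal protease, are likewise known from macrophages though outside the lists used, and changed by 1.35 ± 0.19 and 1.33 ± 0.16. Dusp6, a feedback inhibitor of ERK signalling, went from 18.8, 19.7 and 23.5 CPM to 47.3, 44.2 and 46.8 CPM (1.16 ± 0.11, edgeR adjusted p = 6.03e-05). Ankrd1, a target of mechanical signalling, went from 39.6, 48.1 and 52.2 CPM to 131, 120 and 86.1 CPM (1.27 ± 0.24, edgeR adjusted p = 0.00473).

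Genes of the cell cycle were higher in DKO with small, even changes. Of 64 tested genes of DNA replication and mitosis, 62 were called higher (96.9%, against 15.6% of all genes) and 0 lower. These lists too were chosen with earlier results of these data known. The median log2 fold change was 0.45. The 3 DKO libraries lay above the 3 WT libraries for 63 of the 64, against 22.8% of all genes. The summed level of the 64 genes was 2113, 2518 and 2335 CPM in WT and 3091, 3145 and 3110 CPM in DKO. Mcm3, a subunit of the replicative helicase, went from 44.7, 52.9 and 47.0 CPM to 72.9, 67.6 and 68.2 CPM (0.53 ± 0.07, edgeR adjusted p = 0.000206). Mki67, the Ki-67 proliferation marker, went from 98.3, 126 and 115 CPM to 165, 164 and 184 CPM (0.60 ± 0.08, edgeR adjusted p = 0.000267). Plk1, a mitotic kinase, changed by 0.67 ± 0.08 and Pcna, the replication clamp, by 0.30 ± 0.04. WT library 1 had the lowest level of Mcm3, Mki67 and Pcna. The E2F motif, searched on both strands, was found in 28.1% of the 32 promoter windows of the DNA replication list and in 1.38% of all windows.

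The inhibitors that restrain the cycle did not move together. Of 30 p53 targets and cell cycle inhibitors, 6 were called higher and 8 lower (20% and 26.7%, against 15.6% and 10.3% of all genes), and the number lower was 5 without DKO library 1 and 5 without WT library 1. Cdkn1a, the main p53 target among cycle inhibitors, stood at 392, 332 and 376 CPM in WT and 454, 430 and 364 CPM in DKO and was not called (0.18 ± 0.08, edgeR adjusted p = 0.135). Cdkn2a was not called either, at -0.08 ± 0.10. Cdkn2b, an inhibitor induced by TGF-beta, fell by 0.43 on the log2 scale, and Cdkn2c, a relative, rose by 0.40 ± 0.06.

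Genes of glycolysis and the hypoxia response were higher as well, with 21 of 23 called higher (91.3%, against 15.6% of all genes) and a median of 0.47. Slc2a1, the glucose transporter, went from 163, 221 and 240 CPM to 516, 451 and 413 CPM (1.14 ± 0.22, edgeR adjusted p = 0.00496). Egln3, an oxygen sensor that is itself induced by low oxygen, went from 38.4, 57.1 and 63.8 CPM to 155, 120 and 131 CPM (1.35 ± 0.28, edgeR adjusted p = 0.00764). Slc16a3, the lactate exporter, changed by 0.92 ± 0.18 and Hk2, a hexokinase, by 0.90 ± 0.21. WT library 1 was again the lowest for all 4 genes. Enzymes of the pathway moved less: Aldoa by 0.42 ± 0.05, Pkm by 0.39 ± 0.06 and Ldha by 0.39 ± 0.07, and their counts are uncertain because of pseudogene copies.

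The macrophage level and the labels could not be told apart in these comparisons. Mean log2 CPM of the macrophage lists was 3.73 to 3.99 in the DKO libraries and 0.76 to 2.32 in all 9 others. With this mean as a covariate in the fit of all 12 libraries, 7 genes were called, Ltbp1, Fth1 and Gadd45a higher and Ing1, Adamts1, Lonrf2 and Pcdhb16 lower. The ratio of a gene's standard error in that fit to its standard error without the covariate had a median of 2.04. At an unadjusted p under 0.05 that fit had 1566 genes and the fit without the covariate 5593. Beside the covariate, the median log2 fold change was -0.68 for the small leucine-rich proteoglycans, 0.20 for the contractile list, 0.22 for DNA replication, 0.34 for mitosis and 0.24 for glycolysis and hypoxia, with no member of these 5 lists called. In that fit the log2 fold changes of Dcn, Kitl, Mcm3 and Slc2a1 were -1.29, -1.45, 0.24 and 0.35, and none of the 4 was called (edgeR adjusted p = 0.264, 0.194, 0.475 and 0.785). The part of the macrophage level in the changes of the non-macrophage lists was not tested beyond this.

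Stress and metabolic lists showed mixed or small changes, beside 15.6% of all genes called higher and 10.3% lower. Amino acid and unfolded protein stress genes were lower in 7 of 21 cases (33.3%, against 10.3% of all genes) and higher in 1: the transcription factor gene Ddit3 and its target Trib3 fell by 0.60 and 0.70 on the log2 scale. Hmox1, which breaks down haem, rose from 85.7, 90.0 and 80.9 CPM to 151, 140 and 137 CPM (0.74 ± 0.06, edgeR adjusted p = 2.09e-05), within an antioxidant list with 5 of 18 members higher and 3 lower (27.8% and 16.7%). Among 12 mitochondrially encoded genes, 4 were called lower (33.3%) by small amounts, mt-Cytb by 0.20 on the log2 scale. Of 24 sterol synthesis genes 6 were called higher (25%), and the number was 3 without DKO library 1 and 3 without WT library 2. Among 22 immediate early genes 7 were higher and 2 lower (31.8% and 9.09%), with Junb at 0.70 ± 0.15 and Klf4 at -0.68 ± 0.11.

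Growth factor and signalling genes were called in both directions. In the list of the IGF axis and imprinted growth genes, 8 of 29 were lower (27.6%) and 1 higher: Irs1, the insulin receptor substrate, went from 72.0, 63.0 and 63.2 CPM to 34.5, 33.7 and 37.9 CPM (-0.90 ± 0.09, edgeR adjusted p = 6.05e-05), and the imprinted genes Mest, Plagl1, Sgce and Ndn fell by 0.89, 0.76, 0.42 and 0.31 on the log2 scale. Igfbp3, which binds IGF outside cells, went from 325, 311 and 286 CPM to 132, 171 and 79.9 CPM (-1.27 ± 0.27, edgeR adjusted p = 0.00833). Igf2 and H19, which share an imprinted locus, were not called, and DKO library 3 stood apart for both, at 520 CPM of Igf2 against 1262 and 1352 CPM, and 2152 CPM of H19 against 3473 and 3285 CPM. The feedback inhibitors of Wnt signalling Nkd1 and Nkd2 fell by 0.85 and 0.75, Tgfb1 rose by 0.72 ± 0.10, and Pdgfb rose from 1.58, 1.98 and 1.71 CPM to 6.07, 4.52 and 5.04 CPM (1.57 ± 0.19, edgeR adjusted p = 0.00015). Fgf21, a stress-induced hormone, fell by 1.37. By list, 4 of 21 TGF-beta genes were higher (19%) and 5 lower (23.8%), 2 of 24 Wnt genes higher (8.33%) and 4 lower (16.7%), and 3 of 25 PDGF, FGF, EGF and HGF genes higher (12%) and 7 lower (28%). The shares over all genes were 15.6% and 10.3%, which lie near those of the Wnt list and near the higher share of the TGF-beta list. Without DKO library 2 or WT library 1 the TGF-beta genes called lower were 3, and without DKO library 1 or WT library 1 the Wnt genes called lower were 2.

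Positional and lineage genes were called in both directions, beside 15.6% higher and 10.3% lower over all genes. Of 35 tested Hox genes, 3 were called higher and 2 lower (8.57% and 5.71%), and of 22 limb and T-box factors 3 and 3 (13.6% each), with 1 Hox gene higher without DKO library 2 and 0 or 1 limb gene higher without DKO library 1 or 2 or any WT library. In the adipocyte list 4 of 22 were higher and 4 lower (18.2% each), Lpl falling by 0.84 and Cd36, a fatty acid receptor that macrophages also carry, rising from 6.04, 11.4 and 7.67 CPM to 38.2, 42.9 and 26.4 CPM. Cartilage genes were lower in 2 of 15 cases (13.3%). Osteoblast and BMP response genes were lower in 2 of 15 (13.3%) and higher in 1 (6.67%), Id2 rising by 0.60 ± 0.08. Matn4 was the cartilage gene called in each of the 12 other fits, and it was not called with the macrophage level as a covariate.

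**Figure D5:**
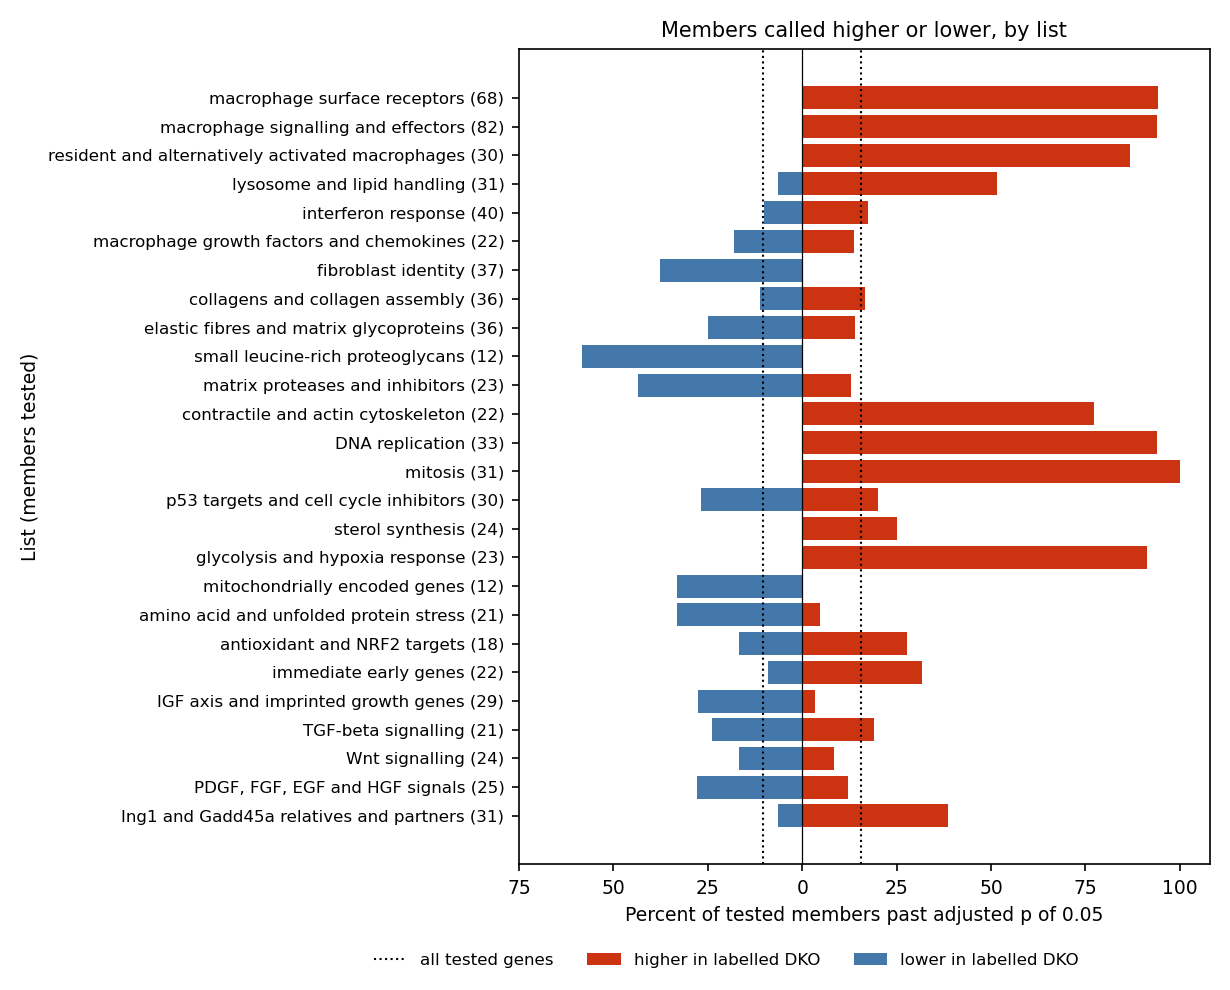
Percent of tested members called higher (red, right) or lower (blue, left) in DKO at an adjusted p under 0.05, for lists with at least 12 tested members, whose number stands in brackets, other than those of lineage, position and other cell types. Dotted lines mark the shares over all tested genes, 15.6% higher and 10.3% lower, and the macrophage, cell cycle and glycolysis lists reach 86.7% to 100% higher.

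Relatives and partners of Ing1 and Gadd45a were called higher in 12 of 31 cases and lower in 2 (38.7% and 6.45%, against 15.6% and 10.3% of all genes), Ing1 and Gadd45a included, with 7 higher without DKO library 1. Ing2, the closest relative of Ing1, went from 8.93, 9.38 and 9.62 CPM to 13.8, 12.7 and 12.6 CPM (0.49 ± 0.07, edgeR adjusted p = 0.000425), while Ing3 fell by 0.30 on the log2 scale and Ing4 and Ing5 were not called, at -0.06 ± 0.07 and -0.04 ± 0.06. Of the Sin3 complex genes in this list, Sap30 rose by 0.81 ± 0.13, Brms1 by 0.31 ± 0.06, Sin3a by 0.26 ± 0.04, Suds3 by 0.21 ± 0.04, Hdac1 by 0.18 ± 0.05, Sap130 by 0.13 ± 0.04 and Sin3b by 0.12 ± 0.04 on the log2 scale. Hdac2, Rbbp4, Rbbp7, Arid4a, Arid4b, Brms1l and Sap30l were not called, with log2 fold changes from -0.10 (Brms1l) to 0.14 (Arid4a and Sap30l). Dnmt1, which copies DNA methylation at replication, rose by 0.33 ± 0.05. Of the relatives of Gadd45a, Gadd45g rose by 0.32 ± 0.10 (edgeR adjusted p = 0.0267) and Gadd45b was not called (0.07 ± 0.07). Of the demethylation enzymes, Tet3 rose by 0.13 ± 0.04 (edgeR adjusted p = 0.016), and Tet1, Tet2 and Tdg were not called, at -0.00 ± 0.08, 0.23 ± 0.08 and 0.16 ± 0.07.

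Markers of red cells, lymphocytes, neutrophils and mast cells were mostly at or near 0, while some neuronal and osteoclast markers were well above it. Hba-a1, Hba-a2, Hbb-bs, Hbb-bt and Hbb-y (red cells), Cd3e and Cd3g (lymphocytes), S100a8, S100a9, Elane and Ltf (neutrophils) and Mcpt4, Tpsb2 and Tpsab1 (mast cells) had a count of 0 in all 6 libraries. The summed level of the 9 neutrophil markers was 0.381 to 0.541 CPM in WT and 1.09 to 1.54 CPM in DKO, and that of the 13 lymphocyte markers 0.327 to 0.722 CPM and 0.504 to 0.776 CPM. The 12 endothelial markers summed to 11.7 to 12.2 CPM and 13.4 to 15 CPM. Among them Tek fell from 2.5, 1.68 and 2.16 CPM to 0.431, 0.284 and 0.583 CPM (-2.26 ± 0.27, edgeR adjusted p = 0.00013), and Pecam1, which macrophages also carry, rose from 0.191, 0.214 and 0.0902 CPM to 1.32, 0.632 and 0.795 CPM. The endothelial markers Kdr and Vwf were called higher too, by 0.88 ± 0.22 and 0.96 ± 0.18. Of the 9 endothelial markers tested, 3 were called higher and 1 lower (33.3% and 11.1%, against 15.6% and 10.3% of all genes). Cdh5, Egfl7, Emcn, Esam and Erg were not called. Cdh1, an adhesion gene of epithelium, rose from 0.327, 0.374 and 0.571 CPM to 3.39, 2.68 and 1.35 CPM, while Esrp1 and Grhl2, which define epithelium, were at 0. Of the other epithelial markers tested, Krt19 was called higher (0.60 ± 0.18), and Krt7 and Krt18 were not called. The embryonic myosin gene Myh3 fell from 0.599, 0.642 and 0.421 CPM to 0.0288, 0.0 and 0.106 CPM. Of 6 skeletal muscle markers tested, 3 were called lower (50%, against 10.3% of all genes) and 0 higher. Actc1 and Myl4 were called lower too, while Tnnt1, Tnnt3 and Chrna1 were not called. The calls of Actc1 and Myl4 were lost in some of the 12 other fits. The 8 osteoclast markers summed to 55.6 to 59.5 CPM in WT and 87.3 to 99.6 CPM in DKO. Of these, Mmp9, which is also in a macrophage list, Acp5 and Nfatc1 rose by 1.25 ± 0.31, 0.70 ± 0.17 and 0.58 ± 0.09, and Tnfrsf11a, at 19.7, 23.7 and 22.0 CPM and then 27.3, 26.1 and 28.7 CPM, was not called. The 12 markers of neurons and Schwann cells summed to 458 to 472 CPM in WT and 499 to 581 CPM in DKO. Most of this sum was Ncam1, an adhesion gene, at 336, 322 and 327 CPM and then 371, 351 and 328 CPM, which was not called. Tubb3, a neuronal tubulin gene, rose from 92.8, 94.4 and 104 CPM to 171, 149 and 133 CPM (0.64 ± 0.16, edgeR adjusted p = 0.0145). Sox10 and Erbb3, which mark Schwann cells, were at most 2.78 CPM in every library and were not called, and S100b fell by 1.73 on the log2 scale. The part of these cell types in the changes of other lists was not tested.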

How the data were processed

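The authors deposited raw counts of reads for each gene, in 1 table a library, with 37991 gene identifiers and 5 summary lines, which were left out. Per the submitters' processing notes, mapping to mm9 (NCBIM37) used TopHat2 2.0.9 with Bowtie2 2.1.0, counting HTSeq 0.5.4 and testing DESeq. Per the labels' protocols, polyadenylated RNA went into libraries without strand information, read over 51 cycles. Between 17.9% and 18.24% of the reads of these 6 libraries did not map to a unique place and were counted to no gene, which affects genes with near-identical copies. The strand setting and the overlap rule of the counting are not given in the sources used here. Symbols, chromosomes and exon overlaps came from GENCODE M21 and promoters from RefSeq (GRCm38.p6), another build than the authors'.

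For the test, all 12 libraries entered 1 quasi-likelihood fit of edgeR 4.0.16 (R 4.3.3) in 4 groups (TMM, filterByExpr, robust, 8 residual degrees of freedom, biological coefficient of variation 8.2%), two-sided, with Benjamini-Hochberg adjustment over 15098 genes and a threshold of 0.05. The SE of a log2 fold change is its absolute value divided by the square root of the quasi-likelihood F of the fit. The macrophage level is the mean log2 CPM (prior count 2) over its lists. DESeq2 1.42.0 and the other alternatives are in the closing section. The members and the 40 gene lists were chosen with earlier results of these data known. Of 1045 list members 1035 had an identifier. The rule for naming genes took Ing1 and Gadd45a, the 10 that rose and the 10 that fell most at a mean of 2 CPM or more without overlap of the groups, the 12 each at a WT mean of 20 CPM or more outside the blood and shared lists, and list members by smallest adjusted p (up to 6 a direction), highest level among those not called (up to 3) or call status. Only part of the list members that the rule took are printed, and that part, like other list members named, was chosen after their values were seen. Chi-square per degree of freedom between libraries of a group was 5.65 to 14.87 in WT and DKO, above counting noise, so none were merged. It was 7.08 to 19.39 in the group labelled as lacking Gadd45a alone and 17.42 to 34.04 in that lacking Ing1 alone. Both of these groups entered the same fit. In simulated counts over 15098 genes, 67, 67 and 66 genes were changed 1.5-fold, 2-fold and 4-fold. Of these, 56.7%, 83.6% and 93.9% were recovered, with 8.2% false among 170 calls. Far fewer genes were changed than were called in the data, and each gene was drawn independently, so these shares may differ in the data. An exact permutation test of 3 against 3 libraries has a smallest two-sided p of 0.1 and was not used. Values of a few list members are not reported here.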

Additional observations from a re-analysis of the deposited data

How the results depend on the processing

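The number of genes called was 3910 in DESeq2 (3675 shared with edgeR), 3901 with RLE size factors, 3911 with library sizes without blood genes, 3539 with no filter on low counts and 3928 with only the 6 libraries. Leaving out 1 WT or DKO library gave 2754 (without DKO library 1) to 3536 (without WT library 3) genes, 1709 to 2140 higher and 1045 to 1424 lower. Macrophage genes called higher numbered 155 to 161 in these 6 fits and fibroblast genes called lower 38 to 44. The contractile count was 6 to 13 and the others kept within 1.5 times: 7 to 8 for small leucine-rich proteoglycans, 24 to 30 for DNA replication, 27 to 30 for mitosis and 18 to 20 for glycolysis. With only the 6 libraries, 11 small leucine-rich proteoglycan genes were called lower, and 61 fibroblast genes in all. With the macrophage level as a covariate, 7 genes were called in all, 3 higher and 4 lower, and of the lists 1 fibroblast gene lower, 0 small leucine-rich proteoglycans, 0 contractile, 0 DNA replication, 0 mitosis and 0 glycolysis genes. That fit was not used for the macrophage genes, which make up the covariate. Of the 340 other genes taken by the naming rule, 244 were called without the covariate. With it, 232 of these lost their call and kept their sign. A further 6 lost their call and changed sign: Fcrls to -0.24, Kdr to -0.09, Cdh1 to -0.35, P4ha1 to -0.04, Ccn1 to -0.13 and Tnxb to 0.04. Of the 96 not called, 33 changed sign with the covariate. In the other settings no called gene taken by the rule changed sign, and of the 105 not called at most 13 did, without DKO library 3 or without WT library 1. Deviations of same-numbered WT and DKO libraries from their group means correlated with r of -0.06, 0.03 and -0.01 across genes. Such values show no pairing over all genes and cannot settle whether some genes share one. A fit with a replicate block called 3824 genes. At this depth, genes under about 2 CPM carry most of the larger changes and the widest errors: of the 867 genes called at 2-fold or more, 494 had a WT mean under 2 CPM.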
